A study of Mus musculus with 36 samples.

Results

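The 40 genes described here serve DNA replication and mitosis, the copying of the genome and its division between daughter cells. They were chosen by symbol, from a list of known cell cycle genes and not by a threshold on these data. The choice was made with earlier results of these data known, so the counts below are not from a blind list. All 40 were among the 9844 genes listed for eosinophils of 7 mouse tissues, and 17 of them were among the 8001 genes listed for eosinophils of the small intestine that were sorted with an Nmur1 reporter (Nmur1 is a receptor of the neuropeptide neuromedin U). By role they are 13 of DNA replication, 9 mitotic cyclins, kinases and degradation factors, 8 of the centromere and the spindle checkpoint, 5 of the spindle and its motors, 3 of chromosome structure and 2 of microtubules.

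Eosinophils are granulocytes that mature in the bone marrow, circulate in blood and settle in barrier tissues. Their precursors in the marrow divide, and mature eosinophils are regarded as cells that have left the cell cycle. In a dividing cell, transcripts of replication genes peak around the entry into DNA synthesis under the control of E2F proteins, and transcripts of mitosis genes peak later, under the DREAM and MuvB complexes.

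Bulk RNA was measured by Smart-seq2, a method that reads full-length cDNA, in 24 libraries of total eosinophils from wildtype C57BL/6 mice: bone marrow (3), small intestine (4), colon (3), skin (3), lung (3), spleen (4) and blood (4). A separate set held small intestine eosinophils of C57BL/6 mice with the NMUR1-TdT reporter, in 5 Nmur1 positive and 6 Nmur1 negative libraries. All mice were 8 to 12 weeks old and at steady state, and the sexes were pooled. Nothing in the labels ties a replicate to its own animal, and p-values here rest on library-to-library spread that may be technical. The eosinophil genes Siglecf, Ccr3 and Il5ra were detected in all 24 tissue libraries. Ccr3 had 274 to 369 TPM in bone marrow, 309 to 430 TPM in lung and 1120 to 1232 TPM in blood. Other eosinophil genes were not found throughout. The granule gene Epx had 1164 to 1790 TPM in bone marrow and 37.1 to 320 TPM in spleen. It was listed at 0 in every colon library and had at most 2.13 TPM in small intestine, skin, lung and blood. In the sorted cells, Nmur1 was at 25.86 to 53.07 TPM in the 5 positive libraries and at 0 to 15.58 TPM in the 6 negative ones.

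Levels are given as TPM, a transcript's share of the library scaled to a fixed total, which corrects for transcript length. Differences are on the scale log2(TPM + 1), which understates changes of genes with low levels, and have the median gene's difference subtracted. That median was 0.08 for bone marrow against the mean of 6 tissues, -0.09 for barrier tissues against blood and spleen and, against blood, 0.11 for spleen, -0.43 for lung, 0.17 for skin, 0.10 for colon and 0.14 for small intestine. A gene was called at an adjusted p under 0.05 in limma, with Benjamini-Hochberg adjustment over all genes tested.

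Nearly the whole set was higher in bone marrow eosinophils than elsewhere. In limma, 38 of 40 genes were higher in bone marrow than in the mean of the 6 other tissues and 0 were lower, where 41.3% of all 9806 genes tested were called, 22% higher and 19.2% lower. At an unadjusted limma p under 0.05 the counts were 39 higher and 0 lower, where 48.8% of all genes passed, 26.1% higher and 22.7% lower. The median difference of the 40 genes was 3.32 above that of all genes. Summed, the 40 genes reached 2736 ± 88.0 TPM (SD, n = 3) in bone marrow libraries. Sums were 644 ± 41.8 TPM in small intestine (n = 4), 528 ± 18.5 TPM in colon (n = 3), 496 ± 14.6 TPM in skin (n = 3), 266 ± 21.3 TPM in lung (n = 3), 603 ± 120 TPM in spleen (n = 4) and 362 ± 23.2 TPM in blood (n = 4). Hmgb2, Tubb5 and Pcna made up a large part of the sums outside bone marrow. Averaged over the 6 tissue means, these genes had 137, 88.2 and 66.9 TPM. In bulk samples, fewer cells of a type and less RNA per cell cannot be told apart.

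Every bone marrow library lay above all 21 libraries of the other tissues for 36 of the 40 genes, and 7.71% of all genes tested had this pattern. For 0 of the 40 did every bone marrow library lie below all others, against 4.14% of all genes. Exceptions were the replication genes Gins2 and Pcna, the centromere gene Cenpf and the spindle motor Kif23. Against each of the 6 tissues separately, 33 of 40 genes were higher, where 7.16% of all genes were called in the same direction against every tissue. The 7 others were Mcm4, Gins2, Pcna, Aurka, Cenpa, Kif23 and Hmgb2. With a pseudocount of 0.1 in place of 1 the count was 15. All 40 genes passed the filter on low values. For 5 of them, Bub1, Cenpe, Cenpf, Kif11 and Tpx2, bone marrow libraries were needed to pass it, so they had to differ to be tested. Of the 35 genes that passed it outside bone marrow, 33 were higher in bone marrow than in the mean of 6 tissues (limma, 20.9% of all 9661 such genes), with a median difference of 3.86. For 32 of the 35 every bone marrow library lay above all others (6.84% of such genes), and 28 of the 35 were higher against each tissue (3.47%).

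**Figure D1:**
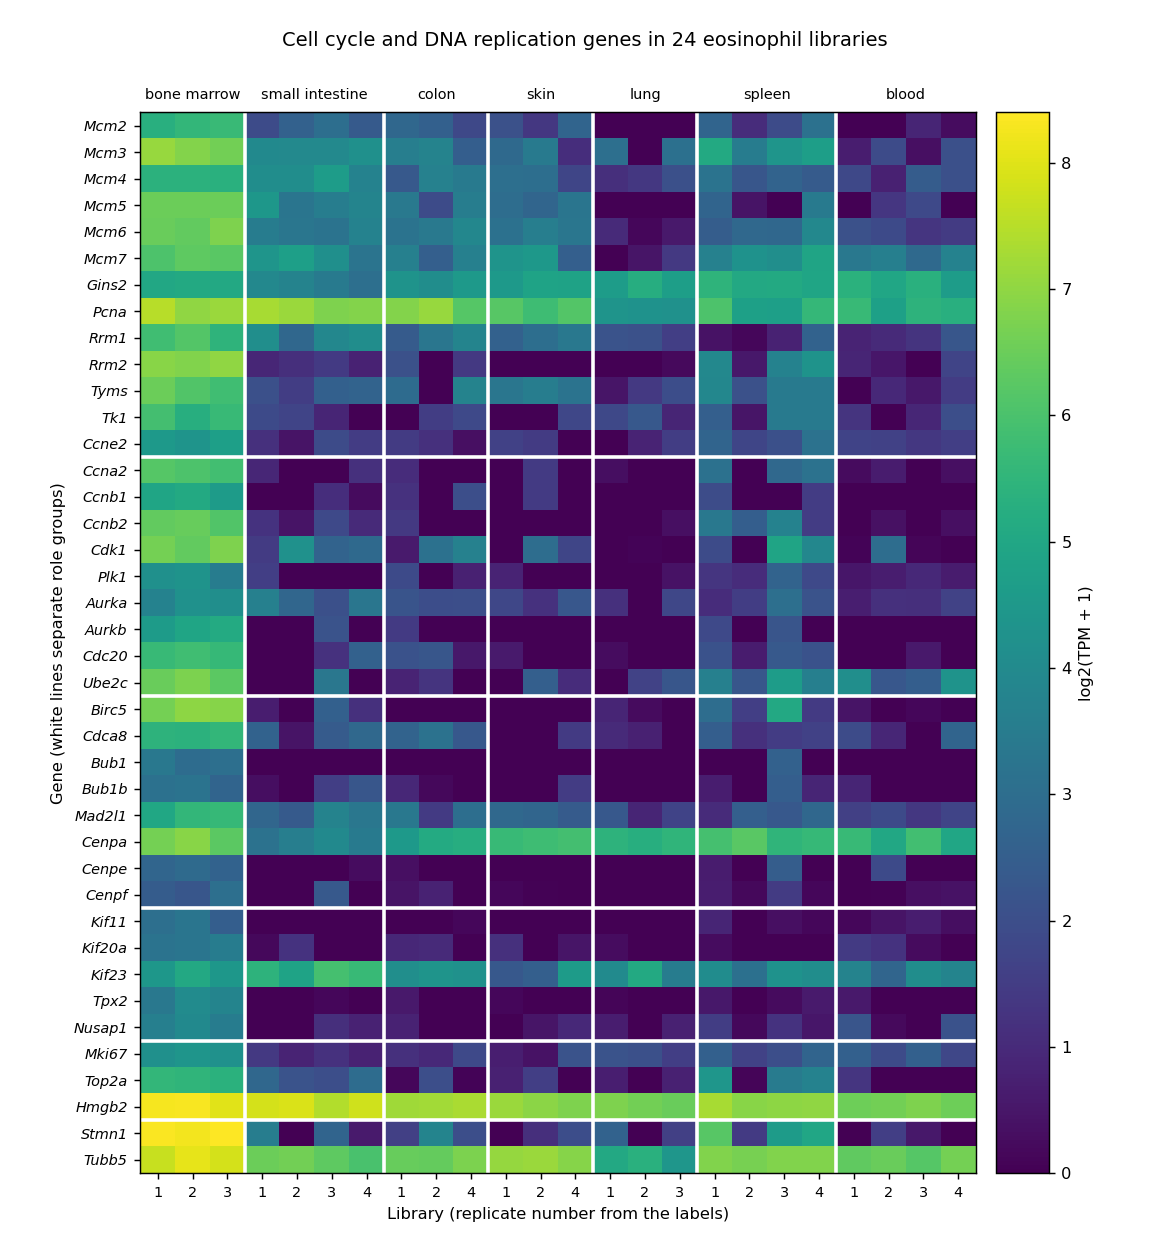
Level of each of the 40 genes, as log2(TPM + 1), in the 24 tissue libraries. Rows are genes in role groups, columns are libraries by tissue. The 3 bone marrow columns are bright in nearly every row, and spleen replicate 2 is darker than the other spleen libraries in many rows.

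Replication genes were the largest group, and 12 of 13 rose in bone marrow, with a median difference of 3.86. The enzymes that make DNA precursors led it. Rrm2, the small subunit of ribonucleotide reductase, had 120, 110.83 and 127.86 TPM in bone marrow libraries, against 0 to 18.94 TPM (median 0.74) in the other 21 libraries. The groups did not overlap, and the highest other values were in spleen. The difference was 5.80 ± 0.50 on the log2 scale (SE, limma adjusted p = 4.51e-10). Rrm1, the large subunit of the same enzyme, differed by less, 3.38 ± 0.41 (limma adjusted p = 1.36e-07).

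Tk1, the thymidine kinase of the salvage pathway, had 57.77, 37.25 and 50 TPM in bone marrow, against 0 to 9.97 TPM (median 1.9) elsewhere. Tyms, which makes thymidylate, had 90.68, 69.11 and 55.12 TPM in bone marrow, against 0 to 13.8 TPM (median 3.23) elsewhere. Both genes separated bone marrow from every other library, with differences of 4.19 ± 0.53 for Tk1 and 3.90 ± 0.50 for Tyms (limma adjusted p = 3.51e-07 and 3.28e-07).

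The MCM genes encode the 6 subunits of the helicase that opens DNA at replication origins, and all 6 rose. Mcm5 had 90.38, 90.62 and 89.84 TPM in bone marrow, against 0 to 21 TPM (median 5.5) elsewhere, a difference of 4.41 ± 0.51 (limma adjusted p = 6.26e-08). Its bone marrow libraries were nearly equal to each other. Mcm6 had 88.79, 82.73 and 107.83 TPM in bone marrow, against 0.11 to 14.11 TPM (median 7.84) elsewhere, a difference of 3.89 ± 0.28 (limma adjusted p = 1.82e-11). Mcm7 had 65.03, 78.55 and 74.39 TPM, against 0 to 28.83 TPM (median 11.71), a difference of 2.87 ± 0.37 (limma adjusted p = 3.01e-07). Neither gene overlapped between bone marrow and the rest. Among the 6, Mcm4 differed least, by 2.65 ± 0.35, and was not called against small intestine, its nearest tissue (limma adjusted p = 0.106 for the test against all 6).

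Ccne2, the cyclin that starts DNA synthesis, had 22.42, 19.47 and 25.83 TPM in bone marrow, against 0 to 7.92 TPM elsewhere. Pcna, the sliding clamp that tethers DNA polymerase, was the exception in range. It had 181.65, 126.91 and 140.27 TPM in bone marrow, which overlapped small intestine at 155.37, 138.61, 108.18 and 114.62 TPM. Colon had 112.97, 137.29 and 71.48 TPM of Pcna and lung only 19.15, 18.3 and 18.1 TPM. Pcna was higher in bone marrow than in the mean of 6 tissues by 1.37 ± 0.22 (limma adjusted p = 7.26e-06) but was not called against small intestine.

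Gins2, a subunit of the GINS complex of the replication helicase, was the 1 replication gene that did not pass (difference 0.39 ± 0.20, limma adjusted p = 0.063). It had 31.9, 33.76 and 32.87 TPM in bone marrow, against 7.41 to 42.64 TPM elsewhere, and 4 spleen and 4 blood libraries lay around the bone marrow values, at 24.08 to 42.64 TPM. Of the exonic length of Gins2, 67.3% (2758 bases) lies within exons of Gse1 on the opposite strand (GRCm38, GENCODE). Gse1 was at 13.2 ± 5.10 TPM in bone marrow (SD, n = 3), and its tissue means ran up to 21.7 TPM in spleen. The sources used here do not state a stranded count, so reads of Gins2 and Gse1 cannot be told apart.

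Mitotic cyclins, kinases and degradation factors rose without exception, 9 of 9, with the highest median difference of the larger groups, 4.61. Ccnb2, a B-type cyclin that drives entry into mitosis, had 82.59, 86.92 and 68.15 TPM in bone marrow, against 0 to 12.19 TPM (median 0.28) elsewhere. It was listed at 0 in 9 of the other 21 libraries. The difference was 5.47 ± 0.36 (limma adjusted p = 2.56e-12), and the highest other libraries were from spleen.

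Ccna2, the cyclin of S phase and early mitosis, had 72.31, 66.23 and 57.22 TPM in bone marrow, against 0 to 8.01 TPM (median 0.18) elsewhere, a difference of 5.29 ± 0.45 (limma adjusted p = 3.75e-10). Cdk1, the kinase partner of these cyclins, had 99.79, 82.12 and 109.12 TPM in bone marrow, against 0 to 29.2 TPM (median 2.36), a difference of 4.80 ± 0.76 (limma adjusted p = 9.02e-06). Cdk1 varied more outside bone marrow than Ccna2 did, with 18.18 TPM in small intestine replicate 2 and 11.79 TPM in colon replicate 4 as well as 29.2 TPM in spleen replicate 3.

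Cdc20 activates the anaphase-promoting complex, which marks cyclins for destruction. It had 49.25, 56.22 and 48.79 TPM in bone marrow, against 0 to 5.05 TPM (median 0.45) elsewhere, a difference of 4.83 ± 0.42 (limma adjusted p = 5.73e-10). Bone marrow and the other libraries did not overlap. Ube2c, the ubiquitin-conjugating partner of that complex, had 87.56, 106.86 and 76.29 TPM in bone marrow, against 0 to 24.22 TPM elsewhere. Its other values were not all low: blood libraries had 16.7, 3.86, 4.67 and 19.05 TPM. The mitotic kinase Aurka was the weakest of the group, at 12.11, 18.14 and 16.91 TPM in bone marrow and 11.69, 5.78, 3.17 and 8.75 TPM in small intestine, and small intestine was the tissue against which it was not called.

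Of the 8 centromere and checkpoint genes, 5 passed the filter on low values outside bone marrow, and those 5 rose. Birc5 encodes survivin, a subunit of the chromosomal passenger complex that corrects spindle attachments. It had 100.09, 123.96 and 115.21 TPM in bone marrow, against 0 to 32.74 TPM (median 0.12) elsewhere, a difference of 6.02 ± 0.49 (limma adjusted p = 1.58e-10). Birc5 was listed at 0 in 10 of the other 21 libraries, and spleen replicate 3 alone gave the highest value. Cdca8, borealin of the same complex, had 42.56, 40.86 and 46.27 TPM in bone marrow, against 0 to 7.99 TPM elsewhere. Its difference was 3.90 ± 0.47 (limma adjusted p = 1.29e-07).

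Checkpoint genes were present at lower levels. Mad2l1, which holds back anaphase until chromosomes are attached, had 31.24, 46.07 and 48.05 TPM in bone marrow, against 0.82 to 12.66 TPM (median 4.25) elsewhere, a difference of 3.02 ± 0.38 (limma adjusted p = 2.94e-07). Bub1, a checkpoint kinase, had 9.31, 6.92 and 7.35 TPM in bone marrow and was listed at 0 in 20 of the other 21 libraries, with 5.07 TPM in spleen replicate 3. Bone marrow and the other libraries did not overlap for Mad2l1. Cenpa, the histone variant that marks centromeres, was high everywhere but in small intestine. It had 99.27, 118.34 and 77.65 TPM in bone marrow, 8.04 to 14.77 TPM in small intestine and 22.24 to 75.28 TPM in the other 5 tissues, with its highest other value in spleen.

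Of the 5 spindle genes, 3 passed the filter outside bone marrow, and 2 of those rose. Tpx2, which nucleates spindle microtubules, had 9.37, 15.77 and 12.86 TPM in bone marrow, against 0 to 0.53 TPM elsewhere. Nusap1, a microtubule-bundling protein, had 11.43, 14.91 and 10.53 TPM, against 0 to 3.66 TPM, a difference of 3.02 ± 0.40 (limma adjusted p = 5.37e-07). The groups did not overlap for Nusap1.

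The kinesin Kif11, which pushes spindle poles apart, had 7.38, 8.52 and 4.64 TPM in bone marrow, against 0 to 0.83 TPM elsewhere, and was listed at 0 in 13 of the other 21 libraries. Kif20a, a kinesin of cell division, had 8.09, 8.61 and 10.58 TPM, against 0 to 1.68 TPM. Tpx2 and Kif11 passed the filter through bone marrow libraries only, so their levels are given without a test. The difference of Kif20a was 2.85 ± 0.31 (limma adjusted p = 2.41e-08). Of the exonic length of Kif20a, 29.3% is shared with Cdc23 on the opposite strand, and Cdc23 averaged 10.2 TPM in bone marrow and 0.193 to 8.01 TPM in the other tissues. Overlaps with genes on the opposite strand also covered 22.8% of the exonic length of Ube2c, 17.4% of Ccne2 and 12.5% of Ccna2.

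Kif23 was the 1 spindle gene that did not pass (difference 0.48 ± 0.37, limma adjusted p = 0.241). This kinesin, needed for the final separation of daughter cells, had 20.74, 32.56 and 20.89 TPM in bone marrow and was highest in small intestine, at 42.47, 28.12, 60.31 and 49.43 TPM. Of the 4 small intestine libraries, 3 lay above every bone marrow value and 1 inside the bone marrow range. Lung replicate 2 also reached 33.47 TPM, against 15.31 and 10.6 TPM in the other lung libraries.

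Chromosome genes rose in 3 of 3 cases. Top2a, the topoisomerase that untangles sister chromosomes, had 46.78, 44.22 and 39.77 TPM in bone marrow, against 0 to 20.3 TPM (median 0.72) elsewhere, a difference of 4.10 ± 0.55 (limma adjusted p = 8.19e-07). Mki67, the source of the proliferation antigen Ki-67, had 17.65, 19.87 and 18 TPM, against 0.33 to 5.53 TPM (median 2.49), a difference of 2.57 ± 0.33 (limma adjusted p = 2.83e-07). Mki67 was above 0 in every library, and Hmgb2, a DNA-bending protein, was abundant in every library. Hmgb2 had 308.96, 318.81 and 261.02 TPM in bone marrow, against 89.2 to 239.91 TPM elsewhere, with the highest other values in small intestine. Its difference was 1.09 ± 0.12 (limma adjusted p = 9.87e-09).

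Both microtubule genes rose, by very different amounts. Stmn1, stathmin, which takes microtubules apart, had 324.82, 304.02 and 337.03 TPM in bone marrow, against 0 to 72.78 TPM (median 2.02) elsewhere. This was the largest difference of the 40 genes, 6.35 ± 0.72 (limma adjusted p = 5.62e-08), and its highest other value was in spleen replicate 1. Tubb5, a beta tubulin found in many cell types, had 208.31, 268.74 and 231.61 TPM in bone marrow, against 20.18 to 140.04 TPM elsewhere, a difference of 1.46 ± 0.15 (limma adjusted p = 7.28e-09).

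**Figure D2:**
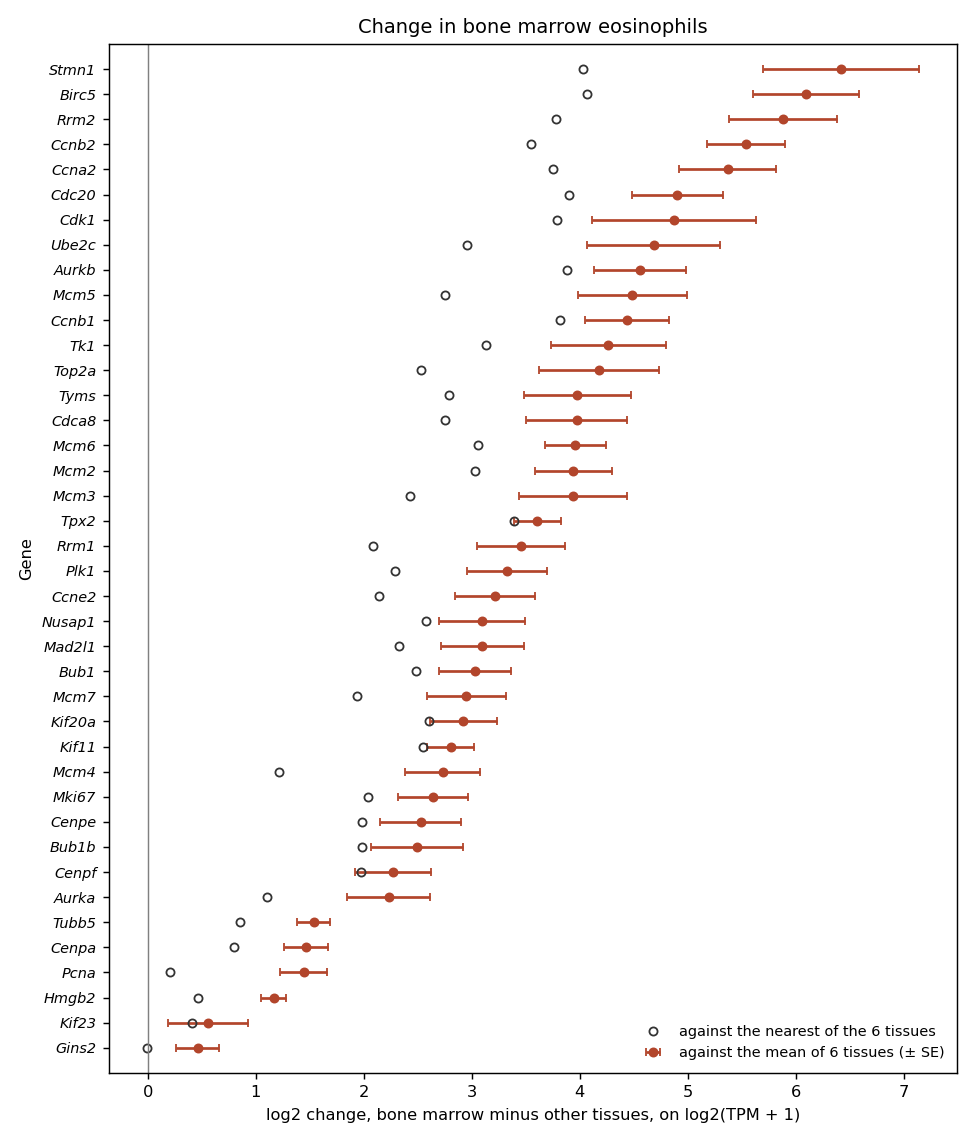
Difference of each gene between bone marrow and the other tissues on log2(TPM + 1), before subtraction of the median gene. Filled points with bars are the difference from the mean of 6 tissues ± SE, and open points the difference from the nearest tissue. Stmn1 and Birc5 stand at the top, and Gins2 and Kif23 at the bottom.

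Promoters of these genes share short motifs, and they are shown because the genes move together in bone marrow. RefSeq windows (GRCm38.p6) of 250 bases before to 50 after a gene start were found for 32 of the 40 genes, as 33 promoters. Ccne2, Ccna2, Stmn1, Aurkb, Mcm4, Gins2, Kif20a and Tpx2 were not in the table. The motif CCAAT, the sequence that the factor NF-Y recognises, stood on either strand in 28 of 33 promoters (84.8%), against 37.4% of all 32851 promoters. TTTGAA, the core of the cell cycle homology region, stood in 16 of 33 (48.5%), against 17.9% of all. Both motifs stood together in 16 (48.5%), against 6.95% of all. TTTGGCG or TTTCCCG, forms of the E2F motif, stood in 6 (18.2%), against 4.84% of all. A match describes letters only. Within 100 bases upstream of the start, CCAAT stood in 25 promoters (75.8%, against 18.9% of all), TTTGAA in 8 (24.2%, against 5.77%) and an E2F form in 2 (6.06%, against 1.63%).

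The 6 promoters below are written, 5′ to 3′ on the strand of the gene, with the motifs above in capitals, whether on this strand or the opposite one. They are Ccnb2 (minus strand, chr9:70421505-70421804), Cdk1 (minus, chr10:69352863-69353162), Top2a (minus, chr11:99024140-99024439), Mcm6 (minus, chr1:128359656-128359955), Mcm3 (minus, chr1:20820263-20820562) and Birc5 (plus, chr11:117848987-117849286). Ccnb2, Cdk1 and Top2a show genes of mitosis or chromosome structure with CCAAT and TTTGAA, and Mcm6 and Mcm3 show replication genes with an E2F form. Birc5 shows a gene with a large difference and neither CCAAT nor TTTGAA in its window.
Ccnb2: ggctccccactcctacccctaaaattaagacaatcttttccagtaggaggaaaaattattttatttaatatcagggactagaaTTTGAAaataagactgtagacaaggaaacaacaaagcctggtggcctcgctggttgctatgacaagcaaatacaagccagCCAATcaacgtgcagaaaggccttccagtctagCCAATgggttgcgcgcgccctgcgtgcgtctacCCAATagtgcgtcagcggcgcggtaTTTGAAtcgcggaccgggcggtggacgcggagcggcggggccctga
Cdk1: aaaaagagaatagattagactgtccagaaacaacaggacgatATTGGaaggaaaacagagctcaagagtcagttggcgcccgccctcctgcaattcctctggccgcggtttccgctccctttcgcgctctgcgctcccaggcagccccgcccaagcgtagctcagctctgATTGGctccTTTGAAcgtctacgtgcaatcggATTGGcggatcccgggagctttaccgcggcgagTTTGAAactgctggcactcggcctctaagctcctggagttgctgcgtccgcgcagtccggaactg
Top2a: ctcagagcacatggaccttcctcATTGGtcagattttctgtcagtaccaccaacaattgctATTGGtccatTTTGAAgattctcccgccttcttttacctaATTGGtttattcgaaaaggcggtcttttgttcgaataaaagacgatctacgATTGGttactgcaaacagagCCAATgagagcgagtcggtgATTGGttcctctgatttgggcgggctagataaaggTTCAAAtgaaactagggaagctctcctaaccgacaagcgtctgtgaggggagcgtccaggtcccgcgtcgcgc
Mcm6: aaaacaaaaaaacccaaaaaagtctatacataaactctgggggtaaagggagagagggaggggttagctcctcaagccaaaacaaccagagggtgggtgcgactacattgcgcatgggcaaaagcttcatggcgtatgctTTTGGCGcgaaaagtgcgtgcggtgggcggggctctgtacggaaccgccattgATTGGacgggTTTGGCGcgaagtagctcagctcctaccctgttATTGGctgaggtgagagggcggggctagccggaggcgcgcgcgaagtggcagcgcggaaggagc
Mcm3: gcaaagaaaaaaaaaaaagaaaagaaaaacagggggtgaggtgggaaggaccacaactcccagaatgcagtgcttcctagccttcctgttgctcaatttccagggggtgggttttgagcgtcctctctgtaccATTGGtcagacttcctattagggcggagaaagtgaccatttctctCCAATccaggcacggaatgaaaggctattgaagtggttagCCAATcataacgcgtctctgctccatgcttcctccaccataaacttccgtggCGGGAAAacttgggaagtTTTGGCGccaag
Birc5: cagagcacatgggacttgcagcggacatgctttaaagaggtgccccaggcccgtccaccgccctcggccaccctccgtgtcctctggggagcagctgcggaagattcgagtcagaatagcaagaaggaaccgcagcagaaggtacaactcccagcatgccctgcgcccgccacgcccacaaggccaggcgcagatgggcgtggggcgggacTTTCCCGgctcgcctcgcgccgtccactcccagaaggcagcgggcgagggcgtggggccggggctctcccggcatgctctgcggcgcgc
Ccnb2 holds 3 CCAAT and 2 TTTGAA motifs, Cdk1 3 and 2, and Top2a 6 and 2. Mcm6 holds 2 copies of TTTGGCG, the nearer starting at -47 from the gene start.

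Genes of the same pathways outside the set were taken from lists of known genes, and most genes of the replication and mitosis lists were also higher in bone marrow. Of 62 other replication genes, 54 were higher in bone marrow than in the mean of 6 tissues and 2 were lower, with a median difference of 2.06. Pclaf, a partner of PCNA, averaged 81.8 ± 19.1 TPM in bone marrow (SD, n = 3) and 1.4 TPM over the other tissue means. Dut, which keeps uracil out of DNA, averaged 169 ± 14 TPM in bone marrow and 6.04 TPM elsewhere. Of 84 other mitosis genes, 72 were higher and 5 lower, with a median of 2.30. Cks1b, a small subunit of cyclin-dependent kinases, averaged 193 ± 26.4 TPM in bone marrow and 5.26 TPM elsewhere. Of 2 replication-dependent histone genes, 2 were higher. Hist1h2ap averaged 1270 ± 358 TPM in bone marrow and 139 TPM elsewhere.

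For 2 lists of general mitotic machinery the counts were closer to those of all genes, of which 22% were higher and 19.2% lower. Of 17 genes of the anaphase-promoting complex and its regulators, 4 were higher and 1 lower, and of 10 cohesin genes 3 were higher and 3 lower, with medians of 0.33 and 0.02. Fbxo5, an inhibitor of that complex, averaged 34.4 ± 3.18 TPM in bone marrow and 1.24 TPM elsewhere. Of 8 G1 cyclins and kinases, 6 were higher and 0 lower. Cdk4, a kinase of the G1 phase, averaged 143 ± 29.1 TPM in bone marrow and 27.0 TPM elsewhere. Of 17 E2F, pocket and DREAM proteins, 11 were higher and 0 lower, with E2f8, a repressor of the family, at 14.8 ± 2.0 TPM in bone marrow and 0.733 TPM elsewhere. Of 28 DNA damage genes, 16 were higher and 1 lower.

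Cell cycle inhibitors were the list with the opposite balance, 4 higher and 11 lower of 17, with a median of -0.98. Cdkn1a, the inhibitor p21, had 14.23, 15.79 and 9.76 TPM in bone marrow. It averaged 167 TPM in small intestine, 1838 TPM in colon, 701 TPM in skin, 632 TPM in lung, 23.8 TPM in spleen and 29.2 TPM in blood. Its difference from the mean of 6 tissues was -4.0 ± 0.19 (limma adjusted p = 1.54e-14), and its spleen and blood libraries, at 16.88 to 38.44 TPM, were far below those of the 4 barrier tissues. Btg2, an antiproliferative gene, averaged 61.3 ± 11.3 TPM in bone marrow, 184 TPM in spleen, 211 TPM in blood and 531 to 1504 TPM in the 4 barrier tissues, a difference of -3.05 ± 0.16 (limma adjusted p = 8.65e-14).

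Genes of some other cell types, but not all, were also higher in bone marrow, where 22% of all genes were higher and 19.2% lower. Of 19 measured genes of neutrophils and their precursors, 16 were higher in bone marrow and 1 lower. Elane, the elastase of promyelocytes, had 5705 to 8373 TPM in bone marrow libraries and at most 86.86 TPM in spleen replicate 4. The summed level of these genes was 71119 to 81362 TPM in bone marrow, 6316 to 8273 TPM in small intestine, 11922 to 14232 TPM in colon, 4485 to 12495 TPM in skin, 66208 to 75409 TPM in lung, 52441 to 67703 TPM in spleen and 59165 to 65950 TPM in blood. In colon, Elane, Mpo, Prtn3, Ctsg, Ms4a3, Fcnb, Camp, Ngp, Lcn2, Chil3 and S100a8 were listed at 0, and Mmp8 was not measured. In lung and blood, Elane, Mpo, Prtn3, Ctsg and Ms4a3 had at most 3.24 TPM. S100a8 had 15202 to 17941 TPM in bone marrow, 0 to 14.68 TPM in lung and 3.23 to 12.87 TPM in blood. Other genes of the list made up nearly all of the lung and blood sums. Of 12 measured eosinophil genes, 8 were higher and 2 lower, and the granule protein gene Prg2 averaged 72327 ± 12110 TPM in bone marrow, 7866 TPM in spleen and 55.1 to 205 TPM in the other 5 tissues. Of 10 progenitor genes, 7 were higher and 1 lower, with sums of 176 to 200 TPM in bone marrow and 30.1 to 130 TPM elsewhere. Nkg7 was the 1 gene measured of 15 T and NK cell genes, and Cd3e, Gzma and Ncr1 were not listed. It had 594 to 755 TPM in bone marrow and 0 to 42.73 TPM elsewhere. Of 6 macrophage and monocyte genes, 1 was higher and 2 lower, with a median difference of -0.01. Their sums were 3783 to 4260 TPM in bone marrow and 529 to 1555 TPM elsewhere. Of 5 mast cell and basophil genes, 4 were higher and 0 lower. Cpa3 and Mcpt8 needed bone marrow libraries to pass the filter on low values, so they had to differ to be tested. Sums of these genes were 114 to 210 TPM in bone marrow and 7.15 to 551 TPM elsewhere, highest in skin and lung. Cpa3, Mcpt8, Fcer1a and Ms4a2 were listed at 0 in every lung library. Of 10 erythroid genes, 3 were higher and 0 lower. Erythroid sums were 7818 to 18497 TPM in bone marrow, 39123 to 118899 TPM in blood and 4.83 to 39593 TPM elsewhere. Of 3 B and plasma cell genes, 1 was higher and 1 lower. Of 5 stromal and endothelial genes, 0 were higher and 2 lower, and of 5 epithelial genes, 2 were higher and 0 lower. The part of these cells in the results on the 40 genes was not tested.

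**Figure D3:**
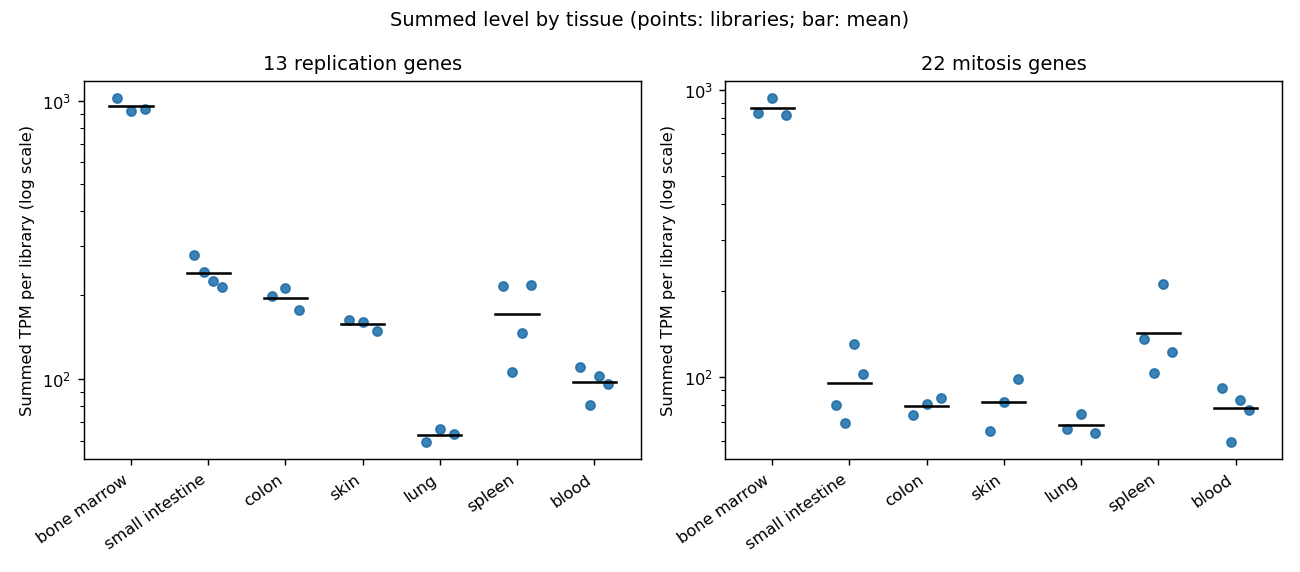
Summed TPM per library, on a log scale, of the 13 replication genes (left) and of the 22 genes of mitosis (cyclins, kinases, centromere and spindle, right) in 7 tissues. Points are libraries and bars are means. Replication sums outside bone marrow ran from 63.0 TPM in lung to 240 TPM in small intestine, and mitosis sums from 68.3 TPM in lung to 143 TPM in spleen. A few genes, such as Pcna and Cenpa, make up a large part of the sums outside bone marrow.

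Outside bone marrow, summed replication levels averaged 240 ± 29.1 TPM in small intestine, 196 ± 18.1 TPM in colon, 157 ± 7.18 TPM in skin, 63.0 ± 3.54 TPM in lung, 171 ± 54.8 TPM in spleen and 97.2 ± 12.6 TPM in blood. Summed mitosis levels averaged 95.8 ± 27.0 TPM in small intestine, 79.7 ± 5.38 TPM in colon, 82.0 ± 16.6 TPM in skin, 68.3 ± 5.52 TPM in lung, 143 ± 47.2 TPM in spleen and 77.9 ± 13.7 TPM in blood (SD, n = 3 or 4). A few genes made up a large part of these sums. In the replication sums, Pcna alone averaged 129 TPM in small intestine and 107 TPM in colon. In lung, Gins2 averaged 28.4 TPM and Pcna 18.5 TPM. In the mitosis sums, Cenpa averaged 54.4 TPM in skin, 41.2 TPM in lung, 56.5 TPM in spleen and 42.1 TPM in blood. Kif23 averaged 45.1 TPM in small intestine. Before any subtraction of the median gene, spleen had the highest mean TPM of the 6 tissues for 22 of 40 genes, small intestine for 10. Lung had the lowest for 18. Shares of all genes with these ranks were not computed, so the counts are not a result about the set. The median gene itself was 0.43 lower in lung than in blood and 0.11 higher in spleen. In a test of any difference among the 6 tissues, 29 of 40 genes were called in limma, and 72.7% of all genes were, a share near that of the set.

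In small intestine eosinophils 13 of 40 genes were higher than in blood and 4 lower in limma, where 44% of all genes were called, 26% higher and 18% lower. The share of the set that was called is near that of all genes. All comparisons with blood share its 4 libraries. The genes called higher were Mcm2, Mcm3, Mcm4, Mcm5, Mcm6, Pcna, Rrm1, Tyms, Aurka, Mad2l1, Kif23, Top2a and Hmgb2, with 8 of them from the 13 replication genes. Mcm5 had 21, 8.54, 10.75 and 12.7 TPM in small intestine and 0, 1.53, 2.58 and 0 TPM in blood, a difference of 2.83 ± 0.58 (limma adjusted p = 1.55e-04). Its groups did not overlap. Pcna differed by 1.58 ± 0.25, with 26.52 to 49.72 TPM in blood (limma adjusted p = 4.03e-06).

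The 4 genes called lower in small intestine were Gins2, Ube2c, Cenpa and Mki67. Cenpa had 8.04, 11.11, 14.77 and 9.98 TPM in small intestine and 49.27, 32.07, 56.95 and 30.05 TPM in blood, a difference of -1.96 ± 0.23 (limma adjusted p = 4.60e-07). All 4 small intestine libraries lay below all blood libraries. Gins2 differed by -1.67 ± 0.23 (limma adjusted p = 4.35e-06). Within small intestine, replicate 3 was the highest library for 15 of 40 genes, more than any other. It alone held Ube2c (9.04 TPM), Aurkb (3.46 TPM) and Cenpf (4.04 TPM), and it also had 908.83 TPM of the plasma cell gene Jchain, against 8.33 to 27.19 TPM in the other 3. Of 3 B and plasma cell genes measured, 2 were higher in small intestine than in blood and 0 lower, with sums of 75.2 to 1005 TPM in small intestine and 0 to 9.72 TPM in blood, and Cd79a was not listed. Their part in the values was not tested.

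**Figure D4:**
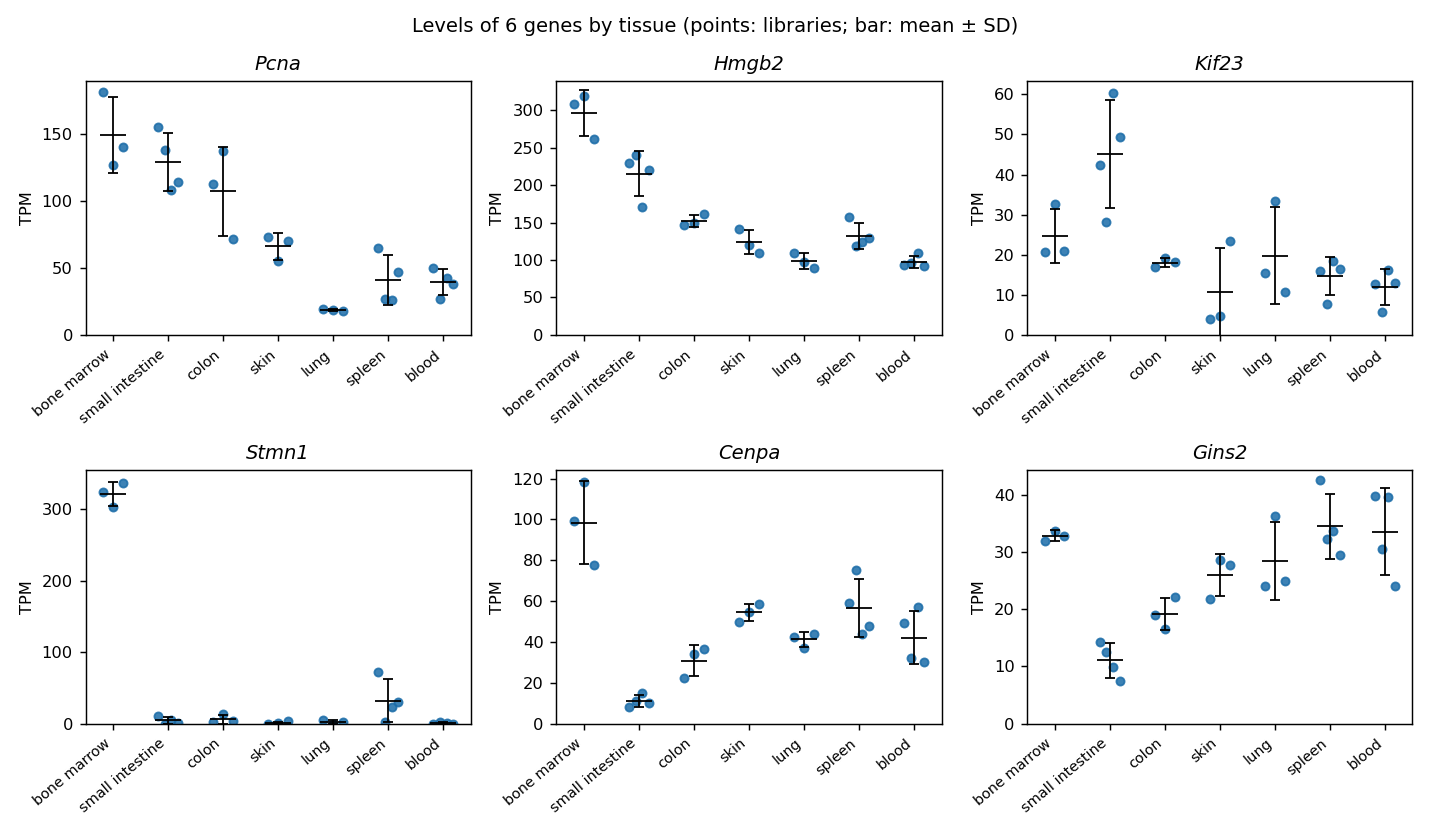
TPM of 6 genes in the libraries of 7 tissues (points), with mean ± SD. Pcna and Hmgb2 have their highest means in bone marrow and the next highest in small intestine, Kif23 is highest in small intestine, Cenpa and Gins2 are lowest there, and Stmn1 is high in bone marrow and, at a lower level, in 3 of 4 spleen libraries.

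Spleen eosinophils were called higher than blood in 9 of 40 genes and lower in 0, where 1.09% of all genes were called, 0.857% higher and 0.235% lower. At an unadjusted limma p under 0.05, 19 were higher and 0 lower, where 9.44% of all genes passed, 7.59% higher and 1.86% lower. The 9 were Mcm2, Mcm3, Mcm6, Rrm2, Tyms, Ccnb2, Birc5, Top2a and Stmn1. Stmn1 had 72.78, 1.68, 23.37 and 30.69 TPM in spleen and 0, 1.96, 0.46 and 0 TPM in blood, a difference of 3.67 ± 0.82 (limma adjusted p = 0.0176). Mcm3 had 33.29, 10.61, 19.83 and 24.88 TPM in spleen and 0.61, 2.82, 0.27 and 3.12 TPM in blood, a difference of 3.07 ± 0.57 (limma adjusted p = 0.00253). For Mcm3 the groups did not overlap, and for Stmn1 spleen replicate 2 lay inside the blood range.

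Ccnb2 had 9.19, 4.76, 12.19 and 1.79 TPM in spleen and 0 to 0.31 TPM in blood, a difference of 2.47 ± 0.41 (limma adjusted p = 6.37e-04). Birc5 had 7.08, 1.92, 32.74 and 1.67 TPM in spleen and 0 to 0.37 TPM in blood. Neither gene overlapped. The difference of Birc5 was 2.50 ± 0.56 (limma adjusted p = 0.0158). It was not called without spleen replicate 3 (1.75, limma adjusted p = 0.0514) or blood replicate 2 (2.44, limma adjusted p = 0.05). Stmn1 was not called without spleen replicate 1, 3 or 4 or blood replicate 1 (limma adjusted p = 0.0514 to 0.0813).

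These 9 calls rest on a spread shared with the other tissues. When limma was fitted to spleen and blood alone, 0 of 40 genes were called (Mcm3 had the lowest limma adjusted p, 0.0553), and with 1 library left out the count ran from 3 to 10. It was 3 without blood replicate 2, spleen replicate 3 or spleen replicate 4, 4 without spleen replicate 1, and 5 without blood replicate 1 or 3. Spleen replicate 2 stood apart: it was the lowest spleen library for 24 of 40 genes, and its summed level was 434 TPM, against 718, 629 and 630 TPM in replicates 1, 3 and 4. It also had 47.81 TPM of the erythroid genes, against 14565 to 39593 TPM in the other spleen libraries and 39123 to 118899 TPM in blood. Of 12 eosinophil genes, 6 were higher in spleen than in blood and 0 lower, and Prg2 had 19974, 4040, 4539 and 2911 TPM in spleen and 63.48 to 103.03 TPM in blood. Of 19 neutrophil genes, 3 were higher and 0 lower, with sums of 52441 to 67703 TPM in spleen and 59165 to 65950 TPM in blood. Spleen replicate 4 had 3242 TPM of S100a8, against 4.04 to 50.03 TPM in the other spleen libraries and 3.23 to 12.87 TPM in blood. Its Elane level was 86.86 TPM, against 1.41 to 1.82 TPM in the other spleen libraries. Replicate 4 was the highest spleen library for 12 of 40 genes, among them Mcm2, Mcm6 and Rrm2, against 13 for replicate 1 and 14 for replicate 3. Of 10 progenitor genes, 2 were higher and 0 lower, and their sums did not overlap, at 108 to 130 TPM in spleen and 66.0 to 97.6 TPM in blood. Of 6 macrophage genes, 2 were higher and 0 lower, with 707 to 1240 TPM in spleen and 529 to 619 TPM in blood. The 3 B and plasma cell genes, of which 1 was higher, summed to 14.2, 19.3, 146 and 23.8 TPM in spleen replicates 1 to 4 and 0 to 9.72 TPM in blood. Spleen replicate 3, the highest of these, was also the highest spleen library for Birc5, Cdk1 and Bub1. The part of these cells in the result was not tested.

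Colon eosinophils were called higher than blood in 9 of 40 genes and lower in 2, where 31.9% of all genes were called, 19.9% higher and 12% lower. These shares of the set are near those of all genes or below them. The 9 higher genes were 7 replication genes, Cdc20 and Hmgb2. Mcm6 had 8.09, 9.57 and 13.68 TPM in colon and 3.21, 2.69, 1.43 and 1.73 TPM in blood, a difference of 1.71 ± 0.35 (limma adjusted p = 2.42e-04). Its groups did not overlap. Skin eosinophils were called higher in 7 genes and lower in 2, where 37.1% of all genes were called, 22.9% higher and 14.2% lower, and 6 of the 7 were replication genes. For skin the share of the set that was called is below that of all genes. Tyms had 8.93, 10.91 and 8.19 TPM in skin and 0, 0.97, 0.46 and 1.81 TPM in blood, a difference of 2.44 ± 0.61 (limma adjusted p = 0.00146). The 2 lower genes were Gins2 and Ube2c in colon and Ube2c and Mki67 in skin. With quantile normalization colon had 7 genes higher and 4 lower. The colon count of lower genes was 1 without blood replicate 1 or 3 or without any colon replicate. The skin count of lower genes was 0 without blood replicate 1 or skin replicate 1, and 1 without blood replicate 3 or 4 or skin replicate 2.

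Lung eosinophils were called higher than blood in 0 of 40 genes and lower in 5, where 35.7% of all genes were called, 8.99% higher and 26.7% lower. The shares of the set called, in total and lower, are below those of all genes. The median difference of the 40 genes was 0.21 above that of all genes. At an unadjusted limma p under 0.05 the counts were also 0 higher and 5 lower, where 44.8% of all genes passed, 11% higher and 33.9% lower. The p-values here test against 0, before the median of -0.43 is subtracted. The 5 genes were Mcm6, Mcm7, Pcna, Ube2c and Tubb5. Mcm7 had 0, 0.39 and 1.64 TPM in lung and 9.19, 11.33, 6.31 and 12.21 TPM in blood, a difference of -2.34 ± 0.45 (limma adjusted p = 3.22e-05). Tubb5 had 32.34, 39.3 and 20.18 TPM in lung and 80.29, 87.8, 72.59 and 98.7 TPM in blood, a difference of -1.06 ± 0.19 (limma adjusted p = 9.96e-07). Neither gene overlapped. With median-ratio scaling the count was 3 lower and 1 higher, and it was 3 lower without blood replicate 1 or lung replicate 2, with 1 higher in the second case.

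Genes of other cell types differed between barrier tissues and blood too. Of 10 erythroid genes, 8 were lower and 1 higher in small intestine, and 7 lower and 2 higher in colon. In skin 8 were lower and 1 higher, and in lung 4 lower and 1 higher. Erythroid sums were 39123 to 118899 TPM in blood, 42.35 to 17762 TPM in small intestine and 117 to 381 TPM in colon. They were 4.83 to 1406 TPM in skin and 2275 to 29143 TPM in lung. Summed neutrophil levels, given above, were higher in every blood library than in small intestine, colon and skin. Of 6 macrophage and monocyte genes, 4 were higher in small intestine and 2 lower, 4 higher in colon and 1 lower, 5 higher in skin and 1 lower, and 0 higher or lower in lung. Their sums were 657 to 805 TPM in small intestine, 809 to 963 TPM in colon, 1145 to 1555 TPM in skin, 537 to 605 TPM in lung and 529 to 619 TPM in blood. Of 5 mast cell and basophil genes, 1 was higher in each of the 4 tissues, with sums of 185 to 243 TPM in small intestine, 118 to 127 TPM in colon, 300 to 551 TPM in skin, 321 to 348 TPM in lung and 7.15 to 10.7 TPM in blood. Cpa3, Mcpt8, Fcer1a and Ms4a2 of this list were at 0 in every library of small intestine, colon and lung. The sums in those tissues thus rest on the remaining gene alone.

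Of 5 epithelial genes, 3 were higher and 2 lower in small intestine and in colon, 0 higher and 1 lower in skin and in lung. Their sums were 106 to 223 TPM in small intestine, 50.3 to 89.2 TPM in colon, 38.9 to 72.6 TPM in skin, 66.4 to 75.4 TPM in lung and 76.8 to 101 TPM in blood. Of 5 stromal and endothelial genes, 3 were higher in small intestine and 0 lower, 1 higher in colon and 0 lower, 1 higher in skin and 1 lower, and 0 higher in lung and 1 lower. The part of these cells in the calls was not tested.

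Set together, the barrier tissues (small intestine, colon, skin and lung) had 5 genes called higher and 12 lower than blood and spleen, where 50.1% of all genes were called, 22.5% higher and 27.6% lower. The share of the set that was called is below that of all genes, and the share called lower is near it. The 5 higher genes were Mcm4, Mcm5, Pcna, Rrm1 and Hmgb2. Rrm1 differed by 1.88 ± 0.30 (limma adjusted p = 1.88e-05), with 1.92 to 16.65 TPM in barrier libraries and 0.11 to 5.28 TPM in blood and spleen libraries, ranges that overlapped. Among the 12 lower genes were Ube2c (-2.33 ± 0.45, limma adjusted p = 6.77e-05), Rrm2 (-1.29 ± 0.36, limma adjusted p = 0.00274) and Ccnb2 (-0.96 ± 0.26, limma adjusted p = 0.00168).

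The sort of small intestine eosinophils by the Nmur1 reporter held 17 of the 40 genes: 10 of replication, Aurka, Mad2l1, Cenpa, Kif23, Top2a, Hmgb2 and Tubb5. The 23 others, most of them mitosis genes, were not analysed here. In limma 2 of 17 genes were higher in Nmur1 positive cells and 0 lower, where 14.4% of all 7982 genes tested were called, 9.18% higher and 5.25% lower. The share of the set that was called is near that of all genes. The 2 genes, Mcm6 and Mcm7, encode helicase subunits. At an unadjusted limma p under 0.05, 7 were higher and 0 lower, where 29.2% of all genes passed, 20.5% higher and 8.73% lower. The median gene differed by 0.22, and the differences below are from that median.

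Mcm6 had 6.07, 10.49, 24.03, 10.28 and 11.1 TPM in Nmur1 positive libraries, against 1.42 to 5.27 TPM (median 2.77) in the 6 negative ones. The groups did not overlap, and positive replicate 4 was far above the rest. The difference was 1.52 ± 0.36 (limma adjusted p = 0.00342). With the replicate number as a block it was 1.65 (limma adjusted p = 0.00811). Mcm7 had 12.27, 8.65, 29.42, 26.34 and 25.6 TPM in positive libraries, against 2.26 to 9.62 TPM (median 5.51) in negative ones. Positive replicate 3 lay below the highest negative library. The difference was 1.5 ± 0.39 (limma adjusted p = 0.00662). The blocked value was 1.52 (limma adjusted p = 0.0146).

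The labels do not say that libraries with the same number pair across the sort. The pairing was taken from Pearson r of 0.164 to 0.225, and differently numbered libraries reached 0.194. The count of 2 above comes from the fit without it. With the number as a block 7 of 17 genes were called higher in limma, adding Mcm2, Mcm4, Rrm1, Kif23 and Hmgb2. With the block 16.8% of all genes were called, 10.9% higher and 5.94% lower. Mcm4 had 15.22, 20.32, 16.66, 25.07 and 27.77 TPM in positive libraries, against 7.07 to 14.81 TPM (median 12.2) in negative ones. It was the only gene besides Mcm6 whose groups did not overlap, a pattern held by 5.65% of all genes, and the opposite pattern was held by 0 of 17 genes and 3.71% of all genes. Its difference was 0.57 ± 0.26 without the block (limma adjusted p = 0.053) and 0.75 with it (limma adjusted p = 0.0452). For Mcm2 the adjusted p was 0.0669 without the block and 0.0115 with it, and for Rrm1 0.0508 and 0.0259, also in limma. Without Nmur1 positive replicate 1 the count was 5, and without negative replicate 7 it was 4.

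Of the genes not called with or without the block, Pcna had 174.54, 113.18, 189.87, 134.26 and 124.82 TPM in positive libraries, against 99.77 to 149 TPM in negative ones, which overlapped (difference 0.10 ± 0.16, limma adjusted p = 0.211). Top2a had 0.88 to 3.84 TPM in positive and 1.09 to 4.71 TPM in negative libraries. Of 7 neutrophil genes measured in the sort, 2 were higher in Nmur1 positive cells and 1 lower, with sums of 6165 to 10384 TPM in positive and 9770 to 13228 TPM in negative libraries, and Elane and Mpo were not listed. Of 8 eosinophil genes, 1 was higher and 2 lower. Of 5 macrophage genes, 2 were higher and 0 lower, with sums of 499 to 775 TPM in positive and 389 to 570 TPM in negative libraries. Sums of 3 epithelial genes, 1 of them higher, were 123 to 242 TPM in positive and 85.3 to 102 TPM in negative libraries, and Epcam was not listed. Sums of 2 stromal genes, 1 of them higher, were 167 to 243 TPM in positive and 86.5 to 149 TPM in negative libraries, and Col1a1 was not listed. The 1 T and NK cell gene measured, Tbx21, was higher, at 1.58 to 2.7 TPM in positive and 0 to 1.09 TPM in negative libraries. The epithelial, stromal and Tbx21 levels did not overlap. Of 2 B and plasma cell genes, 1 was higher, with sums of 82.1 to 441 TPM in positive and 32.1 to 418 TPM in negative libraries. The part of these cells in the results was not tested. Summed over 10 replication genes, positive libraries had 244 to 336 TPM and negative libraries 157 to 232 TPM. Pcna, at the levels above, was the largest part of these sums.

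**Figure D5:**
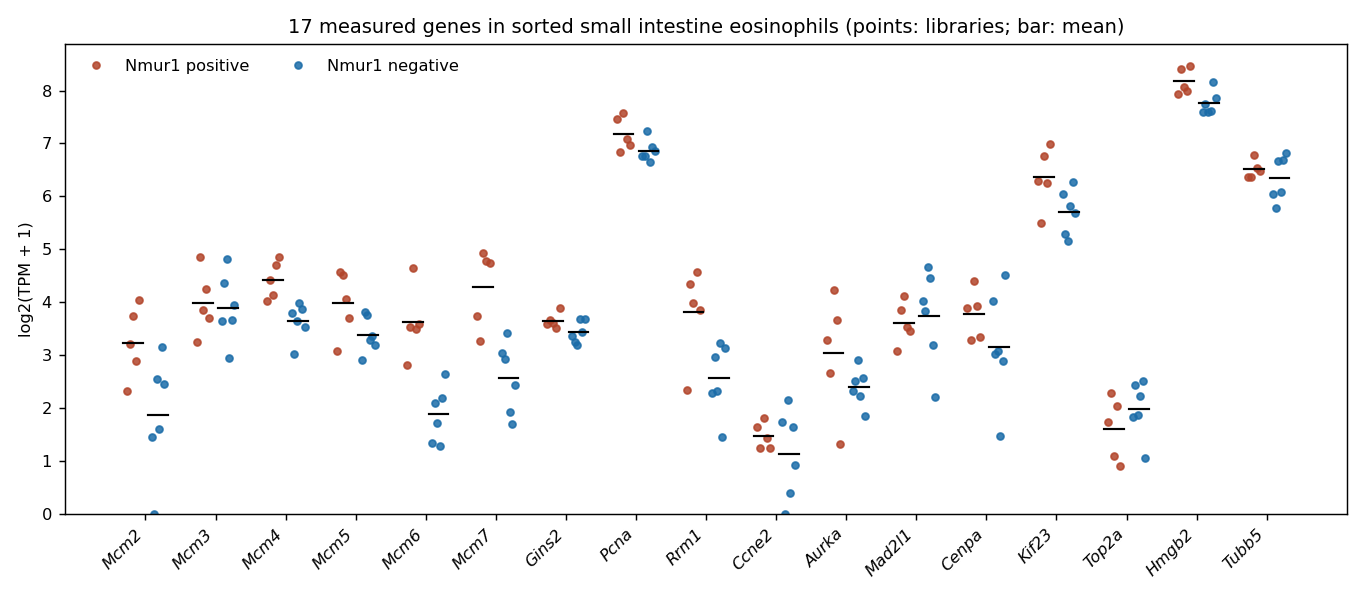
Level of the 17 measured genes, as log2(TPM + 1), in Nmur1 positive (left of each pair) and Nmur1 negative (right) libraries. Points are libraries and bars are means. Mcm6 and Mcm4 are the genes whose points do not overlap.

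Of 40 other replication genes, 4 were higher in Nmur1 positive cells and 1 lower, and of 31 other mitosis genes, 6 were higher and 1 lower, where 9.18% of all genes were higher and 5.25% lower. For the replication list the counts are near those shares. Myc, a driver of cell cycle entry, had 1.52 to 7.17 TPM in positive and 44.67 to 85.96 TPM in negative libraries, a difference of -3.95 ± 0.31 (limma adjusted p = 6.98e-07). The levels of Myc did not overlap.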

How the data were processed

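The authors deposited 2 tables of TPM, for 24 tissue and 11 sorted libraries. The tools named per the submitters' processing notes include RSEM 1.3.3, STAR 2.7.5c and cutadapt 2.10, and the build is mm10. For the annotation, the strand setting and the rule that chose the listed genes, the status is: not given in the sources used here. TPM keeps no depth, so depth is unknown. Deposited TPM columns summed to 796048 to 890768 (tissue) and 799585 to 863816 (sorted). A single-cell sample was not analysed here.

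Log2(TPM + 1) values were fitted in limma 3.58.1 (R 4.3.3; lmFit, eBayes with trend), for genes at 1 TPM or more in at least 3 tissue or 5 sorted libraries. A single fit held the 24 tissue libraries. The threshold was 0.05 on two-sided p-values adjusted after Benjamini-Hochberg. The p tests against 0, before the median gene is subtracted. Values of other settings are also relative to the median gene. The test against each of 6 tissues takes the largest of 6 p-values. The script was tested on simulated data, where at 4-fold (log2 2) changes 88 of 100 genes were recovered for bone marrow, 80 for spleen against blood and 91 for the sort.

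The members and lists were chosen with earlier results of these data known. Text names, per role, up to 4 called genes with the largest change in bone marrow, genes called in the sort and, chosen after their values were seen, the other members described. For other lists it names up to 3 called genes by the same measure. Gene overlaps use GENCODE on GRCm38, and promoters RefSeq on GRCm38.p6. Same-numbered libraries deviated together in the sort (4 pairs, Pearson r 0.164 to 0.225 across genes, each over 0.1; 26 differently numbered pairs, r -0.175 to 0.194, 3 over 0.1) and not among tissues (62 pairs, r -0.045 to 0.088), so the number was taken to pair only the sorted libraries. Alternatives were other pseudocounts, no filter, median-ratio scaling, quantile normalization, robust eBayes, array weights, the replicate block, fits of only the tissues compared, and libraries left out in turn.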

Additional observations from a re-analysis of the deposited data

Results flagged for a closer look

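Each of the 40 genes was examined in each group of 4 to 6 libraries where its mean was at least 1 TPM, 120 combinations in all, and 9 had a library whose gap to its neighbour was large for the range of the group by Dixon's test. Chance flags about 1 in 20 groups.

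In spleen, Bub1 was at 5.07 TPM in replicate 3 and listed at 0 in the other 3 libraries, and Cenpe was at 4.53 TPM in replicate 3, against 0 to 0.56 TPM. Mcm6 was at 14.11 TPM in spleen replicate 4, against 4.62 to 6.08 TPM in the other 3, and Rrm1 was at 5.28 TPM in the same replicate, against 0.11 to 0.73 TPM. In small intestine, Ube2c was at 9.04 TPM and Cenpf at 4.04 TPM in replicate 3, and both were listed at 0 in the other 3 libraries. Mcm3 was at 17.75 TPM in small intestine replicate 4, against 14.34 to 14.92 TPM. Cdk1 was at 6.93 TPM in blood replicate 2 and at 0 to 0.09 TPM in the other 3 blood libraries. In the sort, Mcm6 was at 24.03 TPM in Nmur1 positive replicate 4, against 6.07 to 11.1 TPM in the other 4.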

How the results depend on the processing

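Counts of genes of the set moved by over 1.5 times in these cases. Against each of 6 tissues, 15 were higher at pseudocount 0.1. Spleen against blood gave 4 higher at pseudocount 0.1 and, with only the 2 tissues in the fit, 0 higher and 22 of all genes; with 1 library left out, 3 to 10 were higher and 69 to 119 of all genes were called. Skin against blood gave 1 lower at pseudocount 5 and with the replicate block, 0 with only the 2 tissues in the fit, and 0 to 2 with 1 library left out. Lung against blood gave 1 higher and 3 lower with median-ratio scaling, 2 lower with quantile normalization, and 0 to 1 higher and 3 to 5 lower with 1 library left out. Colon against blood gave 4 lower with quantile normalization and 1 to 2 with 1 library left out. The sort gave 4 higher with array weights, 7 with the replicate block and 2 to 5 with 1 library left out. Motifs within 100 bases upstream gave 8 promoters for TTTGAA and 2 for E2F. In tissues the replicate number was not taken to pair libraries, and the block moved no other count by over 1.5 times. Leaving spleen out of the mean, chosen after seeing the data, gave 39 genes higher in bone marrow. The cause of these moves was not tested.

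Of 3881 values of single genes under other settings, 3700 kept direction and side of the threshold, 142 were no longer called, 24 became called and 15 changed sign, all of them uncalled in the sort. Gins2 was -0.0031 at pseudocount 5, -0.039 with quantile normalization, -0.022 with the replicate block and -0.063 to 0.079 with 1 library left out. Ccne2 was -0.075, -0.020 and -0.092 to 0.307 under pseudocount 5, quantile normalization and left-out libraries. Tubb5 was 0.015 with quantile normalization and -0.153 to 0.044 with 1 library left out, and Mcm3 -0.329 to 0.052. Depth is unknown, so no counting error can be given for low TPM.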
